A study of Bos taurus with 16 samples.

Results

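Among the 16 pools of bovine blastocysts that were sequenced, the Control pool 3.2 held 283 of 22358 loci whose transcripts were nearly absent from, or far scarcer in, every other pool. A locus was included when it had at least 20 counts in Control 3.2 and when its CPM (counts as a share of the pool's total, scaled to a total of 1000000) were over 10 times those of each of the other 15 pools. The loci were therefore selected on the measured counts of this pool, and the difference between Control 3.2 and the other pools is described here without a test. The study left this pool out of its statistical tests because few of its reads fell on annotated exons. It reports unexpectedly many reads in introns and intergenic regions and proposes an error in library preparation as possible. The number of mapped reads that it gives for this pool lies within the range of the other pools. The low total of this pool is thus one of counts on exons, not of reads.

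RNA was taken from expanded blastocysts of 8 superovulated Holstein cows, with the embryos of each cow divided into 2 pools. The Control cows (4 cows, 8 pools, numbered 1.1 to 4.2) received a basal diet, and the Methionine cows (4 cows, 8 pools, 5.1 to 8.2) received the same basal diet with rumen-protected methionine, both from calving until the embryos were collected. The sample labels call the tissue in vitro fertilized embryos, whereas the study's methods describe embryos flushed from the cows. A pool holds whole embryos of 1 cow, so differences among embryos of a pool are not seen, and its RNA was amplified in several linear rounds before sequencing.

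A blastocyst is made of an outer trophectoderm, which forms the placenta and attaches to the uterus, and an inner cell mass, which gives rise to the embryo proper and to the hypoblast that lines the yolk sac. Transcripts such as those of ribosomal proteins and keratins are abundant in every embryo at this stage. Genes for the signalling, excitability and contraction of differentiated tissues, or for smell, are usually silent or low. Whether a bulk pool has less of a transcript because fewer cells carry it or because each cell carries less RNA cannot be told apart from these values.

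The counts of Control 3.2 summed to 1745048, against 5624126 to 7826542 in the other 15 pools, with a median of 7257007. It had 3258 loci with at least 20 counts, and the others had 6790 to 8314. The minimum of 20 counts corresponded to 11.46 CPM in Control 3.2. A count of 3, the most that a count of 0 allows, corresponded to 1.719 CPM in Control 3.2 and to 0.383 to 0.533 CPM in the other pools. The most abundant loci of this pool were those of an ordinary blastocyst library, among them the ribosomal protein genes RPL23 with 29532 counts and RPL15 with 20593. Between any 2 pools, the chi-square per locus was at least 64.4, so that each was counted as a library of its own.

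The loci over 10-fold higher in Control 3.2 than in every other pool took 12.81% of its counts (223584 counts, 95% Wilson interval 12.763% to 12.862%, which covers counting error only). When the same rule was applied to each other pool, it found between 21 and 170 loci, with a median of 55, and these took between 0.0214% and 1.25% of the counts. The next highest number belonged to Control 2.1, with 170 loci and 1.25% of its counts. The second pool of the same cow, Control 3.1, had 53 such loci and 0.0987% of its counts. Relative to the loci with at least 20 counts, the share was 8.69% in Control 3.2 and 0.282% to 2.34% elsewhere. When the minimum of 11.46 CPM was applied to every pool in place of 20 counts, the other pools had 5 to 110 loci, again with the highest number in Control 2.1.

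**Figure D1:**
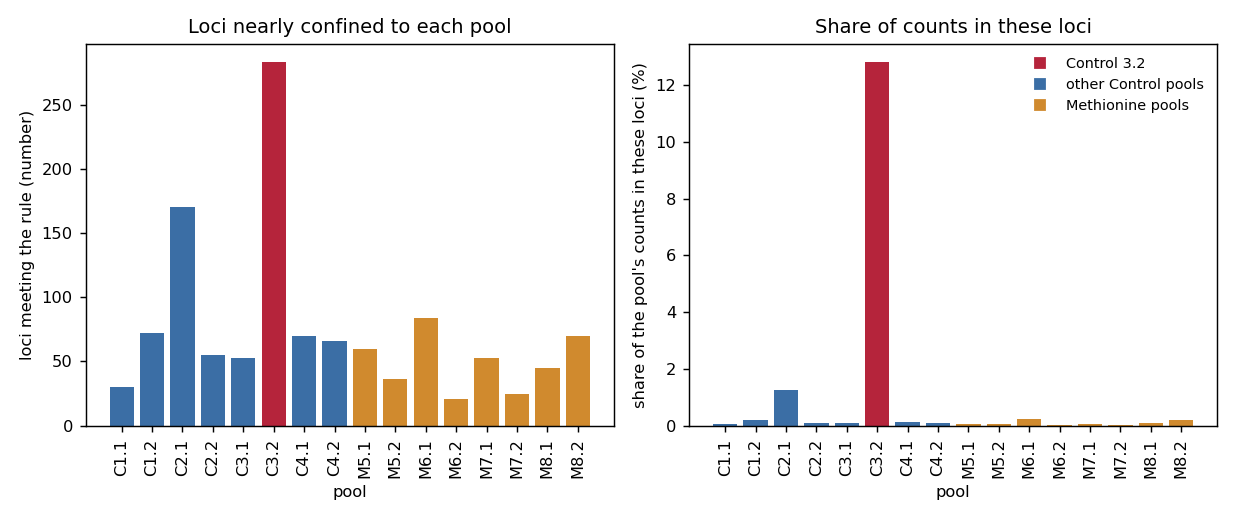
Number of loci with at least 20 counts and a CPM over 10 times that of every other pool (left), and the share of the pool's counts in those loci in percent (right), for each of the 16 pools on the x axis. C stands for Control and M for Methionine, and Control 3.2 (red) has 283 loci and 12.81% of its counts, with Control 2.1 next at 170 loci and 1.25%.

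The loci were not only more numerous but also more abundant. Their median count in Control 3.2 was 249, and the median of the corresponding loci of other pools ranged from 41 to 111.5 although those pools had larger totals. There were 59 loci with at least 1000 counts in Control 3.2, 97 with 200 to 999 and 127 with 20 to 199. In the other pools, between 0 and 18 loci of the same rule reached 1000 counts. The 10 most abundant loci held 34.47% of the counts in the 283 loci, and 12 of the 100 loci with the most counts in Control 3.2 belonged to the group.

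The most abundant gene was NCKAP1L (locus XLOC_017498), which encodes a haematopoietic subunit of the WAVE complex that drives actin branching. It had 14466 counts in Control 3.2, which ranked 12 among all loci in this pool. In the other 7 Control pools it had 11 to 62 counts, with a median of 19, and in the 8 Methionine pools 0 to 10, with a median of 0. The second was STX16 (XLOC_003815), a syntaxin of the trans-Golgi network, which was expressed in every pool. It had 11188 counts in Control 3.2, 145 to 1407 in the other Control pools (median 775) and 328 to 3411 in Methionine pools (median 702). The CPM of Control 3.2 exceeded that of the next pool 752-fold for NCKAP1L and 13.5-fold for STX16. These genes stand for different patterns within the group, a transcript with almost no counts elsewhere and one that was present throughout and higher in Control 3.2.

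Genes of secreted signals followed. FGF2 (XLOC_006081), a fibroblast growth factor secreted by the uterus and known to act on the bovine trophectoderm, had 9659 counts in Control 3.2, 10 to 270 in the other Control pools (median 19) and 0 to 20 in Methionine pools (median 1). The 270 counts belonged to Control 4.2, and the next highest Control pool had 21. IL18 (XLOC_004504), an inflammatory cytokine of the interleukin-1 family, had 6342 counts, with 59 to 224 in the other Control pools (median 187) and 97 to 233 in Methionine pools (median 149). The ranges of the 2 diets overlapped almost wholly for IL18, and Control 3.2 lay 112-fold above the next pool. FGF1, named here after its values were seen because it is the close relative of FGF2, had 1829 counts in Control 3.2, 0 to 26 in the other Control pools and 0 to 2 in Methionine pools.

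CACNB2 (XLOC_003255), the accessory beta subunit of voltage-gated calcium channels, had 8000 counts in Control 3.2. The other Control pools had 8 to 2098, with a median of 14, and the Methionine pools 0 to 79, with a median of 0. The high values were 2098 counts in Control 1.2 and 493 in Control 3.1, so that transcripts of this gene were abundant in a further pool of the same cow and in a pool of cow 1. SORCS1, a sorting receptor of the nervous system, had 5117 counts against 1 to 10 in the other Control pools and 0 to 30 in Methionine pools, with 30 in Methionine 8.1 and 0 in the other 7. MLIP, a lamin-interacting protein of muscle, had 4544 counts against 3 to 20 and 0 to 32. In Methionine 8.1 it had 32 counts, and in the other 7 Methionine pools it had 0 or 1.

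Other abundant members are housekeeping genes that every pool expressed. SRRM1, a cofactor of pre-mRNA splicing, had 4601 counts, 339 to 1257 in the other Control pools (median 918) and 416 to 1578 in Methionine pools (median 761.5), and it lay 12.1-fold above the next pool on the CPM scale. SHQ1, which assembles the small nucleolar ribonucleoproteins of the H/ACA type, had 3672 counts against 47 to 550 and 17 to 673. LAS1L, which acts in ribosome assembly, had 3133 against 38 to 423 and 76 to 183. The counts of these genes overlapped between the diets. PDCD6IP, an adaptor of the ESCRT membrane machinery also known as ALIX, and CUL4B, a scaffold of ubiquitin ligases, had 2596 and 2576 counts and lay 15.5-fold and 20.9-fold above the next pool. TRIM27, a ubiquitin ligase, had 3384 counts, against 11 to 64 in the other Control and 6 to 75 in the Methionine pools.

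A further set had almost every count in Control 3.2. SERP2, a stress-associated protein of the endoplasmic reticulum, had 2356 counts there and 0 to 3 in any other pool, a 2674-fold higher CPM than in the next pool, where the 3 counts are at the floor. BACH1, a repressor of haem oxygenase, had 2355 counts there and 0 to 5 elsewhere (2046-fold). TMEM25, a membrane protein of the immunoglobulin superfamily, had 3146 counts, 4 to 14 in the other Control pools and 0 to 9 in Methionine pools (976-fold). OR4K14, an odorant receptor, had 2222 counts, 0 to 5 in the other Control pools and 0 in every Methionine pool. Over the 283 loci, 88 had more than 90% of all their counts in Control 3.2 and 228 had more than 50%, although this pool had the smallest total count of the 16.

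**Figure D2:**
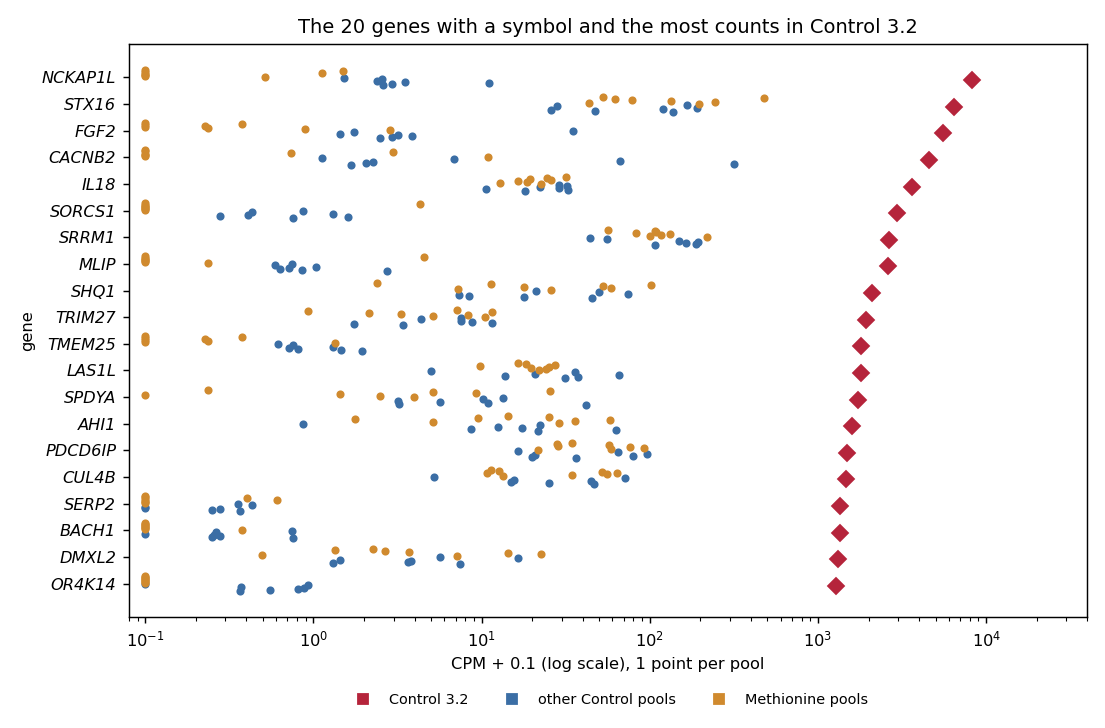
CPM plus 0.1 on a log scale (x axis) of the 20 genes with a symbol that had the most counts in Control 3.2 (y axis), with 1 point for each of the 16 pools. Control 3.2 (red diamonds) lies at least 10-fold to the right of every other pool because the genes were selected for this, while values elsewhere range from 0 counts (points at 0.1) for SORCS1 or OR4K14 to the 3411 counts of STX16 in Methionine 8.1.

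Over the 270 loci with a count in some other pool, the median ratio of the CPM in Control 3.2 to the next highest pool was 28.4. The ratio was between 10 and 20 for 86 loci, over 100 for 56 and over 1000 for 8. The remaining 13 loci, or 4.59%, had 0 counts in all other pools. They were led by SLC5A1, the intestinal sodium and glucose cotransporter, with 101 counts, which is at least 108-fold higher than a floor of 3 counts in the smallest other pool, and they included MIR181A-1 with 43 counts, MIR148B with 30 and MAPK10 with 25. Among the loci that the same rule found in other pools, the share with 0 counts elsewhere was 5.56% to 36%.

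The values at the limit of the rule were continuous with those outside it. SLC2A4, the insulin-responsive glucose transporter, was just inside with 53 counts and a ratio of 10.01, and ENTPD3 followed with 34 counts and 10.1. DYNC1H1, the heavy chain of cytoplasmic dynein, was just outside with 2632 counts and a ratio of 9.785, as was ARNT, the partner of the hypoxia-inducible factors, with 216 counts and the same ratio.

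The loci were also read by their detection in the remaining pools. Of the 283, 38 had at least 3 counts in every one of the other 15 pools, and 72 (25.44%) had at least 3 counts in 12 or more of them. In the other pools, 0 or 1 locus of the rule reached 3 counts in every remaining pool, and between 0% and 4.29% did so in 12 or more. Conversely, 37 loci (13.07%) had 3 counts in no other pool, against 47.06% to 84% of the loci of the rule in other pools. These shares depend on the total count and on the rule. In Control 3.2, with its smaller total, 20 counts are a higher CPM, and a locus high in CPM may hold more counts elsewhere. With a minimum of 100 CPM in every pool, chosen after the data were seen, 166 loci remained in Control 3.2 and 68 of them (41%) had 3 counts in 12 or more other pools, against 4 of 23 (17.4%) in Control 2.1 and 0 to 4 loci in all for each of the other 14 pools. The loci share 1 library, so these counts have no test.

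**Figure D3:**
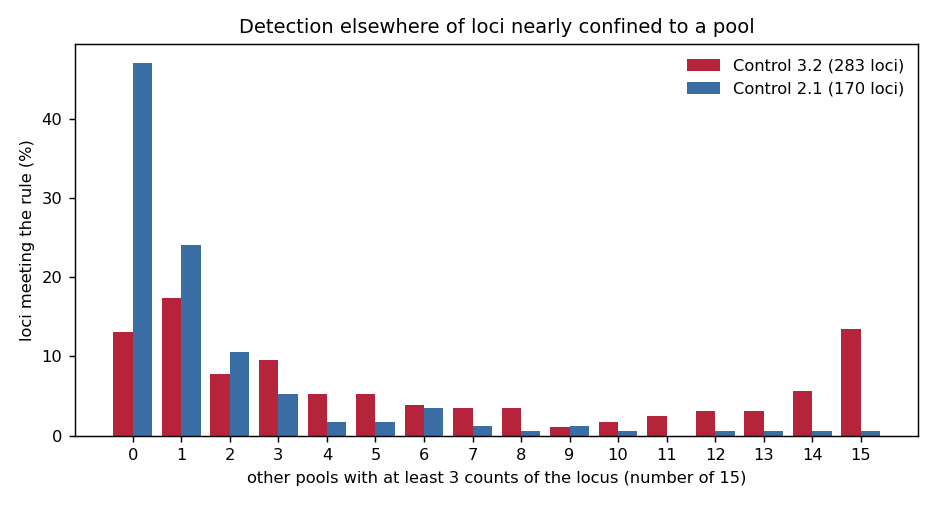
Share in percent of the loci meeting the rule (y axis) by the number of other pools, of 15, in which the locus had at least 3 counts (x axis), for Control 3.2 (283 loci, red) and Control 2.1 (170 loci, blue). In Control 2.1, 47.06% of the loci reached 3 counts in no other pool, against 13.07% in Control 3.2, where a second peak at 15 pools holds 38 loci.

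By name, 232 of the 283 loci (81.98%) carried a gene symbol, 44 (15.55%) a LOC number, which is given to predicted genes without a symbol, and 7 (2.473%) a CUFF number, which marks a transcript that Cufflinks assembled from the reads. LOC and CUFF loci together made up 18.02% (95% Wilson interval 13.98% to 22.92%, counting error only). They made up 6.588% of the other 2975 loci with at least 20 counts in this pool and 24.26% of all loci. Among the 17495 loci with at least 1 count in the 16 pools they made up 18.84%, close to the share in the group. In the loci that the rule found in the other 15 pools, they made up 20.59% to 45.45%, with a median of 35.71%, so that the share in Control 3.2 was below that of each other pool. The lowest of these, 20.59% in Control 2.1, lies inside the interval given for Control 3.2. The sets also differ in total count, since 20 counts are a lower CPM in the other pools. The share of CUFF loci alone ranged from 0% to 24% in the other pools.

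In a RefSeq gene table of the ARS-UCD2.0 assembly, used for names alone, 244 of the 283 loci were found, and of these 238 (97.5%) were protein coding, 1 was a pseudogene, 2 were long non-coding RNAs and 3 were microRNA genes. The most abundant LOC locus, LOC788199 (XLOC_017743), had 3972 counts in Control 3.2, 7 to 231 in the other Control pools with a median of 18, and 0 in all 8 Methionine pools. LOC530341 had 2768 counts and carries the symbol CTTNBP2, a cortactin-binding protein of neurons, in the RefSeq table. LOC100850324 had 2662 counts, and LOC100196901, a long non-coding RNA, had 2383 and was present in every other pool with 28 to 846 counts. LOC509506, listed as the cytochrome P450 gene CYP4F47, had 1466 counts, 0 to 5 in the other Control pools and 0 in Methionine pools.

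The most abundant CUFF locus had 9185 counts in Control 3.2, 9 to 2218 in the other Control pools (median 222) and 0 to 766 in Methionine pools (median 4). Like CACNB2, it had its second highest value in Control 1.2. CUFF.1909.1 had 1856 counts, 182 in Control 2.2, 0 to 7 in the other 6 Control pools and 0 in all Methionine pools. The other CUFF loci with most counts had 667 (CUFF.1923.1), 493 (CUFF.1852.1, listed with CUFF.1852.2) and 166 (CUFF.1239.1).

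Among the families of genes that were counted by name, ion channels and ligand-gated receptors contributed 9 members of 254 loci. They were CACNB2 with 8000 counts, its relative CACNB4 with 26, the regulatory subunit CACNG2 with 1050, the glutamate receptors GRIA3 and GRIA1 with 282 and 201, the sodium channel SCN1A with 177, the ryanodine receptor RYR3 with 109, TRPM4 with 99 and the acetylcholine receptor CHRNA6 with 40. The family formed 3.18% of the 283 loci and 0.522% of all loci with at least 20 counts in Control 3.2. CACNG2 was also high in Methionine 6.1, with 340 counts, and had 0 to 9 in the remaining 14 pools. Zinc finger proteins, which are mostly transcription factors, contributed 10 of 340 loci (3.53% of the 283 against 1.44%), led by ZNF444 with 1353 counts and ZNF18 with 1052.

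Solute carriers contributed 6 of 347 loci, led by the glucose transporter SLC2A2 with 401 counts and the mitochondrial carrier SLC25A14 with 303. Ubiquitin ligases contributed 5 of 242 (1.77% against 1.26%), led by TRIM27 and by RNF170 with 1110 counts. Other G protein-coupled receptors contributed 4 of 230 (1.41% against 0.246%), led by the orphan receptor GPR61 with 635 and the UDP-glucose receptor P2RY14 with 183. Motor proteins contributed 4 of 84 (1.41% against 0.46%), led by MYO5A, an unconventional myosin of organelle transport, with 1852, and the axonemal dynein DNAH5 with 137. Kinases and phosphatases with the symbol prefixes searched contributed 3 of 192 (1.06% against 0.921%), among them the tyrosine phosphatase PTPN13 with 1561. Kinases with other symbols, such as MTOR with 576 counts and BRAF with 490, were members outside that count. Each of the remaining families had 2 members or fewer by the symbols searched, which leave out matrix proteins such as TNN (769), LTBP1 (495), THBS4 (271) and VCAN (214). These included the matrix proteins ADAMTSL3 (1216) and FBLN7 (173), the neuronal adhesion proteins LRRTM4 (80) and LRRC4 (26), the cytokine receptor IL5RA (40), the bile salt transporter ABCB11 (269), the protocadherin PCDH8 (254) and the transcription factor SOX6 (530), and cytochromes P450 had 0 members under their symbols.

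Odorant receptors, the proteins of smell in olfactory neurons, were OR4K14 and OR2L13 by symbol, with 2222 and 37 counts, and 2 of 202 loci belonged to that family. With the RefSeq names of LOC loci added after the values were seen, 9 of the 755 loci that the table names as odorant receptors met the rule, and these were all 9 of them that reached 20 counts in Control 3.2. LOC788199, which the study describes as a gene like an olfactory receptor, was not in that table and is not in these counts. The 7 loci added by RefSeq name had between 30 counts (LOC783002) and 176 (LOC789201). In the other 15 pools, between 0 and 5 odorant receptor loci met the rule, with a median of 3, and between 1 and 9 had at least 20 counts. As a share of the loci that met the rule, odorant receptors named by symbol or RefSeq were 3.18% in Control 3.2 and 0% to 14.3% elsewhere.

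The markers of the blastocyst's tissues were read in Control 3.2 from lists of known genes. The trophectoderm list summed to 7572 CPM, within the 3988 to 9819 CPM of the other Control pools and above the 3236 to 7149 CPM of the Methionine pools. It was carried by KRT18 with 5534 CPM, TFAP2C with 836.7 and GATA2 with 557, while 10 of its 20 loci were at 0, among them CDX2, TFAP2A and the interferon tau loci. Of these, TFAP2A, IFNT and IFN-TAU also had a median of 0 CPM in the other pools. TEAD4 (4.01 CPM) and CLDN4 (8.60 CPM) lay below every other pool, where the lowest values were 55.4 and 30.0 CPM. TFAP2C lay above every other pool, where the highest value was 550.5 CPM. CDX2, the defining transcription factor of the trophectoderm, was low throughout, at 0 to 27.3 CPM in the other pools. One trophectoderm gene was a member, the transcription factor ELF5, with 529 counts in Control 3.2, 80 in Control 4.1, 73 in Methionine 6.1 and 0 to 2 in the other 13 pools.

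The inner cell mass list summed to 85.96 CPM in Control 3.2, below every other pool (143.2 to 1795 CPM in Control and 196.4 to 516.8 in Methionine), and 5 of its 10 loci were at 0. KLF4 carried most of the difference, with 34.96 CPM against a median of 176.5 in the other pools, and POU5F1, the best known regulator, had 5.73 against 23.7. SOX2 (16.05 CPM, median elsewhere 15.5) and LIN28A (28.1, median 24.6) lay within the range of the other pools. The hypoblast list summed to 8774 CPM and lay above every other pool (1685 to 5154 CPM in Control and 1872 to 4087 in Methionine). Fibronectin (FN1) with 5651 CPM, the laminin LAMB1 with 1465 and the endocytic adaptor DAB2 with 1134 carried that sum, and the transcription factor GATA6 (248.1 CPM) and the receptor PDGFRA (272.2 CPM) were also above their highest values elsewhere, 157 and 238.4 CPM. The collagen gene COL4A1 went the other way, with 4.01 CPM, below every other pool (lowest 6.17 CPM, median 18.7). The transcription factors SOX17, GATA4 and HNF4A were at 0 in Control 3.2 and at 0 to 4.62 CPM in the other pools. None of the hypoblast or inner cell mass genes met the rule. The part of these shifts in the group's values was not tested.

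Markers of cells that a flushed embryo could carry with it were also summed. The leukocyte list reached 195.4 CPM in Control 3.2, against 1.8 to 2667 CPM in the other Control pools, the highest being Control 2.1, and 2.68 to 22.2 CPM in the Methionine pools. PTPRC, the pan-leukocyte phosphatase CD45, was a member with 278 counts (0 to 18 in the other Control pools and 0 to 48 in Methionine pools), and without it the list came to 36.1 CPM. Of that rest, 28.1 CPM belonged to CSF1R, which was no member but lay above its highest value elsewhere, 11.3 CPM. Of the 22 loci, 16 were at 0, including ITGB2, CD14, CORO1A and CD4. The fibroblast list came to 90.5 CPM, of which the member DCN, a small matrix proteoglycan, made up most with 135 counts, and 13.2 CPM remained without it. COL1A1, COL3A1, LUM and POSTN were at 0.

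The erythroid list came to 6.30 CPM (1.09 to 45.5 CPM in the other pools), the uterine epithelium list to 29.8 (15.6 to 204.2) and the cumulus list to 29.8 (2.77 to 70.2). The oocyte list came to 1.72 CPM (4.80 to 25.7), below every other pool. The sperm list came to 83.1 CPM (1.85 to 123.3), most of it SPATA16 with 136 counts, while PRM1, PRM2 and TNP1 were at 0. None of the genes on these 5 lists was a member. Genes of immune cells outside the list, named after their values were seen, included the lymphocyte kinase LCK, with 732 counts against 1 to 237 in the other Control and 16 to 298 in Methionine pools. Others were LCP2 with 356 counts and the transcription factor IKZF2 with 1637.

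The opposite rule found loci that were missing from this pool. Of 4206 loci with at least 20 counts in all 15 other pools, 775 had a CPM in Control 3.2 that was over 10 times lower than in each of them, and 301 of these had 0 counts. Among the most abundant of them elsewhere was PA2G4, with 150 counts in Control 3.2 against at least 10035 in every other pool, and PARP1, an enzyme of DNA repair, had 165 against at least 7532.

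The cow of Control 3.2 also gave Control 3.1. Loci within the fold limit of Control 3.2 in any other pool, Control 3.1 included, had been removed by the rule. The values of the 283 loci therefore cannot show whether both pools of this cow shared high loci. With Control 3.1 not compared, the rule found 289 loci, and leaving out each other pool in turn gave 285 to 296. Among the 283 loci that remained, values in Control 3.1 were as a set not higher than in pools of other cows. Control 3.1 was the next highest pool for 12 of the loci, the lowest number of any pool together with Methionine 7.2, whereas Control 2.1 was the next highest for 29 and Methionine 6.1 for 27. The summed CPM of the 283 loci was 1450 in Control 3.1, within the 809.6 to 1828 CPM of the other 15 pools, against 128100 in Control 3.2. In pairs of direct neighbours in the RefSeq order, 12 of the loci stood next to another of them, such as POGLUT1 and TMEM39A, PTPN13 and MAPK10, or the CTTNBP2 locus and CFTR.

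For the most abundant of the loci, the low counts that remained in the other pools were not spread evenly over the diets. For the 59 loci with at least 1000 counts in Control 3.2, 93.2% of the values in the other Control pools were 1 count or more (88.1% to 96.6% by pool), and 62.7% of those in the Methionine pools (50.9% to 76.3%). All 7 Control pools thus lay above all 8 Methionine pools in this share, and 7 of the 59 loci had 0 counts in every Methionine pool while none was at 0 in every other Control pool. For the 97 loci with 200 to 999 counts, the shares were 71.3% and 63.4%, and the ranges of the pools overlapped. Of these 97, 5 were at 0 in every Methionine pool and none was at 0 in every other Control pool. For the 127 loci with fewer counts the shares were 29.9% and 28.1%. Of these 127, 32 were at 0 in every other Control pool and 27 at 0 in every Methionine pool. Both numbers include the 13 loci with 0 counts in all other pools. They also compare 7 Control pools with 8 Methionine pools, and fewer pools are more easily all at 0. The same shares were not taken over all loci with similarly low counts.

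A similar direction was seen for the loci of other pools. Loci that met the rule in a pool and had at least 100 counts there (3 to 90 loci in the other pools and 197 in Control 3.2) were more often detected with 1 count or more in the remaining pools of the same diet than in those of the other diet. This held for 15 of the 16 pools, the exception being Control 4.2 with 30.8% against 36.1%. The same diet includes the second pool of the cow, and without that pool the direction held again for 15 pools, with 73.6% against 58.4% in Control 3.2. With all pools the shares in Control 3.2 were 73.1% and 58.4%, in Control 2.1 they were 41.1% and 26.1%, and in Methionine 8.1 they were 47.6% and 16.7%. The study divided its barcoded libraries evenly over more than 1 sequencing lane. The sources used here do not name the sequencing lane or run of a pool, so diet and any such grouping of libraries cannot be told apart.

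**Figure D4:**
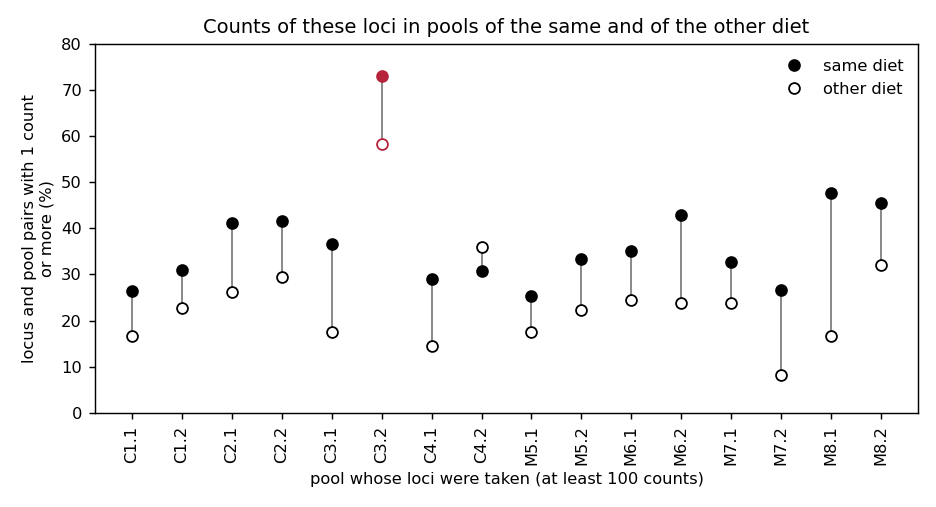
Share in percent of pairs of locus and remaining pool with 1 count or more (y axis) among loci that met the rule in the pool on the x axis with at least 100 counts, for remaining pools of the same diet (filled) and of the other diet (open). The filled point is higher in 15 of the 16 pools, Control 3.2 (red) stands at 73.1% and 58.4%, and Control 4.2 is the exception.

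Of the 17409 loci with a count in some of the 15 other pools, 4 (0.023%) had every one of the 7 other Control pools above every Methionine pool in CPM. Of the 270 members with counts there, 2 did so, NCKAP1L and LOC788199. For NCKAP1L the lowest Control value was 11 counts and the highest Methionine value 10. For LOC788199 the lowest Control value was 7 and all Methionine values were 0, and it was the 1 member among 3 loci with counts in all 7 Control pools and none in the Methionine pools. In the opposite direction 1 locus (0.00574%) separated the diets, and it was no member. These members were chosen for their level in a Control pool that was left out of this count, and Control 3.1 shares its cow as well as its diet.

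The diets were then compared in the 15 pools without Control 3.2 by the exact test of edgeR with Benjamini-Hochberg adjustment (FDR) over all 10519 loci that passed the filter on low counts, and a locus was called when it differed at least 2-fold with an FDR below 0.10. The pools of a cow are not independent, and the test treats them as if they were. Of the loci tested, 110 (1.05%) were called, 81 (0.77%) of them higher in Control. Without cow 7 the balance turned, with 31 higher in Control and 33 in Methionine. The filter kept 109 of the 283 members, and 5 (4.59%) were called, all higher in Control. These were LOC788199, CUFF.1909.1, CACNB2, MSRB3 and FGF2. None of these 5 would have passed the filter on its Methionine pools alone, so the direction of these calls is not independent of the filter. Without the filter, the exact test called 55 of 17409 loci (0.316%) and 2 of 270 members (0.741%). By the quasi-likelihood test of edgeR, which allows for uncertainty in each locus's dispersion, 0 loci were called (smallest FDR 0.302), with 909 of 10519 loci and 10 of the 109 members at an unadjusted p under 0.05, and DESeq2 called 63 loci and 1 member. The median log2 fold change of Methionine over Control by the exact test was -0.13 over the members tested and -0.05 over all loci tested.

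LOC788199 had the smallest FDR of the members (0.000124), with a mean of 7.27 ± 13.6 CPM (SD) over the 7 Control pools and 0 in all 8 Methionine pools. It was at least 127-fold higher in Control when the Methionine pools were set at 3 counts over all 8. Of its 318 counts in the 7 Control pools, 231 were in Control 4.1 and 87 in the other 6. The locus was called in all 8 fits that left out a cow and by DESeq2 (log2 fold change -6.25, SE 1.39, FDR 0.00474). CUFF.1909.1 (FDR 0.0321) had 182 of its 197 Control counts in Control 2.2, and without that cow it was not called.

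CACNB2 had 56.4 ± 116 CPM in Control and 1.80 ± 3.80 in Methionine, a log2 fold change of -5.32 (exact test FDR 0.0529), and it lost its call without cow 1, to which its highest value of 2098 counts belonged. MSRB3, a methionine sulfoxide reductase that repairs oxidized methionine in proteins, had 5.81 ± 14.4 CPM and 0.0580 ± 0.121 (log2 fold change -6.37, exact test FDR 0.0832). Its counts were 233 in Control 4.1 and 0 to 6 in the other 14 pools, and it was not called without that cow. FGF2 had 7.11 ± 12.2 CPM and 0.511 ± 0.944 (log2 fold change -3.90, exact test FDR 0.0962), with 270 of its Control counts in Control 4.2, and it was not called without that cow either. Each of these 4 also lost its call in the fits without cow 6, cow 7 or cow 8, and DESeq2 gave an FDR of 0.166 or more for all 4.

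Named members that were not called included NCKAP1L (log2 fold change -3.28, exact test FDR 0.269) and, with higher values in Methionine, SOX6 (4.26, FDR 0.265) and CACNG2 (4.34, FDR 0.311). SOX6 had 198 and CACNG2 340 counts in Methionine 6.1, and at most 32 and 9 in any of the other 14 pools. For STX16 the log2 fold change was 0.68 (exact test FDR 0.887). With Control 3.2 included, the values of SOX6, CACNG2 and STX16 turned to -3.85, -4.35 and -3.12.

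With Control 3.2 included, the same test called 341 of 10803 loci (3.16%), of which 282 (2.61%) were higher in Control. Here 274 of the 283 members passed the filter, 165 of them only through their counts in Control 3.2, and 141 were called, all higher in Control. As the members were selected on that pool, this count follows from the rule. Of the 236 loci called only when the pool was included, 136 (57.6%) were members, and 105 loci, 5 of them members, were called in both sets. A further 38 loci called with all 16 pools had their highest CPM in Control 3.2 without meeting the rule. The quasi-likelihood test of edgeR called 0 loci with all 16 pools (smallest FDR 0.166, with 1239 loci at an unadjusted p under 0.05), and DESeq2 called 57, of which 4 were members.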

How the data were processed

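The authors used TopHat 2.0.4 (genome bosTau7), Cufflinks 2.0.2 and htseq-count. Deposited were the raw counts per gene of 16 pools, with totals of 1745048 to 7826542. Loci listed under several names (182 of 22358) were entered once. Members and lists were chosen with earlier results of these data known. Named genes are the 20 symbols, 5 LOC and 5 CUFF members with most counts, the top 2 of each marker list and family, those called in 15 pools and those at the limit. Other genes named (abundant or missing loci of the pool, further family members, loci at 0 elsewhere, neighbours, immune genes) were chosen after their values were seen. CPM is scaled to each pool's total. For diets, loci with a summed CPM of at least 15 were tested by the exact test of edgeR 4.0.16 (TMM, tagwise dispersion) in R 4.3.3, with its quasi-likelihood test and DESeq2 1.42.0 beside it. Scripts were tested on simulated data. RefSeq names came from another assembly, so no position or sequence is given. Counts of genes that share sequence with a near copy, such as odorant receptors, are uncertain.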

Additional observations from a re-analysis of the deposited data

Results flagged for a closer look

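In 18 measures, each looked at in the 8 Control and the 8 Methionine pools (36 groups), 11 single pools lay apart from the rest of their group by Dixon's criterion, which flags about 1 in 20 groups by chance. For Control 3.2 these were the total of 1745048 counts (next 5624126), the 3258 loci with at least 20 counts (next 6991), the 12.81% of counts in loci over 10-fold above every other pool (next 1.25%) and the 38 such loci with at least 3 counts in every other pool (next 1). Both of the last values come from the counts that the rule used, and they are no independent support for it.

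Control 2.1 stood apart in the summed CPM of leukocyte markers, 2667 (next 195.4, in Control 3.2), and of fibroblast markers, 592.3 (next 138.6). Control 4.2 stood apart in inner cell mass markers, 1795 CPM (next 496.7). Methionine 5.1 did so in its TMM factor, 1.389 (next 1.085), and in trophectoderm markers, 7149 CPM (next 5075). Methionine 8.2 did so in erythroid markers, 45.5 CPM (next 17.3), and Methionine 7.1 in sperm markers, 123.3 CPM (next 39.25). Several of these sums were mostly 1 gene, so they do not stand for their lists. VIM made up 583.7 CPM of the fibroblast sum in Control 2.1, and KLF4 1624 CPM of the inner cell mass sum in Control 4.2. ALAS2 made up 45.5 CPM in Methionine 8.2, and TNP1 120.9 CPM in Methionine 7.1.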

How the results depend on the processing

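The number of loci in Control 3.2 exceeded that of each other pool at the other fold, count and CPM limits tried. It was 428 at 5-fold, where the median of the other pools was 86, and 285 to 296 when 1 other pool was left out. With a minimum CPM in place of the count, the median of the other pools fell from 55 to 23 and their highest number from 170 to 110. The diet calls depended on the test and the cows. In 15 pools, 110 calls became 0 by the quasi-likelihood test, and 0 again by that test with the pool number as replicate block, 63 by DESeq2, 55 with no filter, and 50 to 149 without 1 cow (50 without cow 8, 64 without cow 7). The 5 members called became 0, 0, 1 and 2 in these fits, 2 with the pools of a cow summed, and 1 to 5 without 1 cow (1 without cow 6, 7 or 8, 3 without cow 2, 4 or 5). In 16 pools, 341 calls became 0 by the quasi-likelihood test with or without the block, 57 by DESeq2, 559 with DESeq2 size factors, 141 with the pools of a cow summed, and 115 to 606 without 1 cow (115 without cow 3, 569 and 606 without cows 1 and 4, 155 to 205 without cows 5 to 8). The 141 members called became 0, 4, 201 and 48 in these fits, and 5 to 214 without 1 cow (5 without cow 3, 62 to 88 without cows 5 to 8, 214 without cow 4). Apart from the fits with fewer pools or loci, the cause was not tested. The 5 members called in 15 pools kept their direction in these fits. Pool numbers do not pair the cows of the diets. The low total of exon counts in Control 3.2 limits what could be called absent there, since 3 counts are 1.719 CPM.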
